A study of Mus musculus with 12 samples.

Results

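The zinc finger genes with symbols beginning Zfp and a number were examined in the hippocampus of male C57BL/6 mice after a single episode of restraint. Of 362 such genes in the RNA tables, 162 had a mean level of at least 2 FPKM over the control and stress tables and are described here, out of 23953 genes in all and 9158 genes at or above the same limit. FPKM counts sequenced fragments per kilobase of a transcript, scaled to library size, and the levels of all isoforms of a gene were summed. The genes were thus selected on their mean RNA level, and those levels are a description. Both tables were at or above 2 FPKM for 143 of the 162 genes, 17 were below it in the control table and 2 in the stress table. The symbol says that the protein holds zinc fingers, and neither a shared function nor a shared family follows from it.

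Stressed mice (6 animals) were held in a tube for 30 min, starting 2 h after lights on, and were then housed singly in a clean cage for 1 h before they were killed. Control mice (5 animals) were not restrained and were killed when the stressed mice entered restraint, so the groups also differed in time of day and in housing, which cannot be told apart from restraint. The sample tags give postnatal day 28 as the age in both groups and the protocol gives 7 weeks. Punches of the whole hippocampus were pooled from 2 mice, with 1 mouse in one of the pools. The pools gave 3 stress and 3 control libraries of fragments enriched for 5-hydroxymethylcytosine (5hmC), with 1 peak list per library. RNA from the same mice was analysed here as 1 table per group, so no RNA difference below has a replicate check or a test.

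Most proteins with arrays of C2H2 zinc fingers bind DNA, and many of those in mammals carry a KRAB domain that recruits the corepressor TRIM28 (KAP1) and the histone methyltransferase SETDB1 to silence retroelements and to protect imprints. A few Zfp genes encode RNA-binding proteins with CCCH fingers, ubiquitin or SUMO ligases, or splicing and spindle factors instead. 5hmC is made from methylated cytosine by the TET enzymes, is abundant in neurons, and lies mostly in gene bodies and away from active CpG-rich start sites.

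The libraries differed in size before any gene was considered. Peak lists held 15195 to 31654 peaks in the stress group and 16327 to 27916 in the control group, covering 16.6 to 38.1 and 16.7 to 30.1 Mb of the genome. Stress library 1 and control libraries 1 and 3 had short lists, and the other 3 libraries had long ones. The deposited lists give no read counts, so depth per gene is unknown. In the RNA tables, the summed FPKM of the choroid plexus markers (9 of 9 measured) was 233 in controls and 64.9 after stress, that of the ependymal markers (6 of 6) 11.5 and 6.68, and that of the oligodendrocyte markers (12 of 12) 1600 and 1399. The sums for the other cell types were 555 and 636 for astrocytes, 65.3 and 75.7 for microglia, 39.6 and 45.8 for endothelium, 45.9 and 57.3 for thalamus, and 535 and 594 for hippocampal neurons. Of the 7 endothelial markers 4 were higher and 3 lower after stress, and the higher sum rested on Ly6c1 at 13.6 and 23.1 FPKM, while Cldn5 stood at 9.80 and 5.77. No marker of these lists was listed at 0 in either table. The part of these differences in the values below was not tested, and in bulk tissue fewer cells of a type cannot be told apart from less RNA per cell. As a check on the labels, 5 of the 7 expressed stress and activity response genes were at least 1.5-fold higher in the stress table, among them Sgk1, a glucocorticoid target, at 7.34 FPKM in controls and 21.9 after stress.

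The start sites of the genes are shown first, with the 5hmC peaks found there. The 250 bases before the first listed start were found by symbol for 134 of the 162 genes in RefSeq's GRCm38.p6 sequences. Shown are Zfp809 and Zfp189, which had the highest RNA differences, Zfp36l1, which had the lowest, and Zfp804a, whose last exon carried 5hmC peaks in the control group alone. They were chosen after their values were seen. Each is written from 5′ to 3′ on the strand of the gene, and capitals mark CpG.
Zfp809, chr9:22225453-22225702, plus strand: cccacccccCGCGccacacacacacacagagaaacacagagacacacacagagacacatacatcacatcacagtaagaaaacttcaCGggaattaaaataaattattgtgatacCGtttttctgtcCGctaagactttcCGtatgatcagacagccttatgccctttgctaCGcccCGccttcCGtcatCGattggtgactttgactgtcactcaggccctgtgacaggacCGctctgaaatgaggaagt
Zfp189, chr4:49520926-49521175, plus strand: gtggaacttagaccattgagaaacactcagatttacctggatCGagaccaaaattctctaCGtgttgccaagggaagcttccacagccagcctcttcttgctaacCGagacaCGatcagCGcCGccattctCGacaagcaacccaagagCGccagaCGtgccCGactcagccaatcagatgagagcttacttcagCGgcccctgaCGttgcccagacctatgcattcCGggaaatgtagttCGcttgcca
Zfp36l1, chr12:80113014-80113263, minus strand: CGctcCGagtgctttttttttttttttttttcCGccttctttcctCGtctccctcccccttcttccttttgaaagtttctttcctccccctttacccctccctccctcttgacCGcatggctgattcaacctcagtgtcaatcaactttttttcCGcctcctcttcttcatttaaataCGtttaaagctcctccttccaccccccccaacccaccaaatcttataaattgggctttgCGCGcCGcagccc
Zfp804a, chr2:82053408-82053657, plus strand: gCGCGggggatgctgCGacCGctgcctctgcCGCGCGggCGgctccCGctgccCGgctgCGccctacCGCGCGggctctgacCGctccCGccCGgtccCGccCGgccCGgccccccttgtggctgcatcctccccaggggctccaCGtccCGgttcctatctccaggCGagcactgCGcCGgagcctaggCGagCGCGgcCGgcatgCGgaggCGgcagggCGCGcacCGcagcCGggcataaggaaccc

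These windows held 11 CpG in Zfp809, 14 in Zfp189, 10 in Zfp36l1 and 35 in Zfp804a. The median over the 134 matched genes was 12, against 17 over 6867 start sites matched among the 9158 genes of at least 2 FPKM and 6 over all 27025 RefSeq promoters. Of 9 motifs searched on both strands, chosen while the sequences were explored, CCAAT was present in 45.5% of the Zfp windows, 36.2% of those of all expressed genes and 34.5% of all promoters. The longer TGATTGGC, whose reverse complement contains CCAAT, was present in 12.7%, 5.55% and 3.78%, and Zfp189 held it. CCGGAAGT was present in 9.70%, 6.16% and 2.93%, and GGGCGG in 46.3%, 61.8% and 32.9%. TGACGTCA was present in 2.99%, 3.01% and 1.62%, and TGACG, which lies within it, in 27.6%, 29.1% and 17.9%. The other 3, the palindromes known for the glucocorticoid receptor and for ZBTB33 and the element known for the serum response factor, were found in 0 of the Zfp windows. They were rare in the background too. In that order, they were in 0%, 0.917% and 0.0291% of the windows of all expressed genes. Of all promoters, 0.0037%, 0.407% and 0.0740% held them. These matches describe letters in a window and no test was made. In the 250 bases before the start, taken in mm9 from the RNA tables, 0, 0 and 2 of the 162 genes had a peak in stress libraries 1 to 3, and 0, 3 and 1 in control libraries 1 to 3. Over all 9158 genes, 0.448% to 1.05% had a peak in that window in the 6 libraries, and the share among the Zfp genes ranged from 0% to 1.85%.

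Most of the genes were expressed at low levels. The median of the mean FPKM was 3.35 over the 162 genes and 6.97 over all 9158 genes, and 121 of the 162 lay between 2 and 5 FPKM, 28 between 5 and 10 and 13 at 10 or above. Just inside the limit were Zfp830 at a mean of 2.00 FPKM, Zfp386 at 2.01 and Zfp606 at 2.01, and just outside it Zfp939 at 1.997, Zfp74 at 1.99 and Zfp142 at 1.97. Of the other Zfp genes, 96 had a mean of 1 to 2 FPKM and 104 a mean below 1, 7 of which were listed at 0 in both tables. Several of the best-studied members of the name fell below the limit, among them Zfp36 (tristetraprolin) at 0.56 and 0.68 FPKM in the control and stress tables, and Zfp57, which protects imprints in the embryo, at 1.09 and 0.94. Because many Zfp genes are close paralogs, reads can be shared between them and the values of single genes are uncertain to that extent.

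The most abundant member was Zfp365, also known as DBZ, a binding partner of DISC1 in the brain, at 43.5 FPKM in controls and 44.6 after stress. Zfp106, an RNA-binding protein, followed at 26.5 and 29.8 FPKM, and Zfp706 at 24.7 and 25.3. Zfp207 (BuGZ), which binds the spindle checkpoint protein BUB3, stood at 19.5 and 22.8 FPKM, and the ubiquitin ligase gene Zfp91 at 17.5 and 16.3. In all 5 the difference was small, with log2 values between -0.09 for Zfp91 and 0.21 for Zfp207. The 10 most abundant were completed by Zfp644 at 15.7 and 16.0 FPKM, Zfp871 at 13.1 and 15.3, Zfp664 at 12.9 and 13.9, Zfp428 at 11.6 and 12.6, and Zfp445, which protects imprints together with Zfp57, at 11.1 and 12.3.

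RNA of the Zfp genes was slightly higher in the stress table, to nearly the same degree as RNA in general. Differences are log2((stress FPKM + 1)/(control FPKM + 1)), a scale that understates the change of low genes. The median difference was 0.12 over the 162 genes, with the middle of the distribution between 0.03 and 0.22, and 0.09 over all genes. Of the 162 genes, 131 (80.9%) were higher after stress, against a background of 71.8%, and 96 were above the median of all genes. Only Zfp809 was at least 1.5-fold higher, where 1.08% of all genes were, and 0 were at least 1.5-fold lower, where 0.721% of all genes were. With smaller limits, chosen after the values were seen, 12 of the 162 (7.41%) were at least 1.25-fold higher and 2 (1.23%) lower, against 7.32% and 2.71% of all genes, and 27 (16.7%) were at least 1.2-fold higher and 2 (1.23%) lower, against 12.6% and 4.15%. The share of higher genes was thus at the background level with one limit and above it with the other, and the whole Zfp distribution ran from -0.38 to 0.60.

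**Figure D1:**
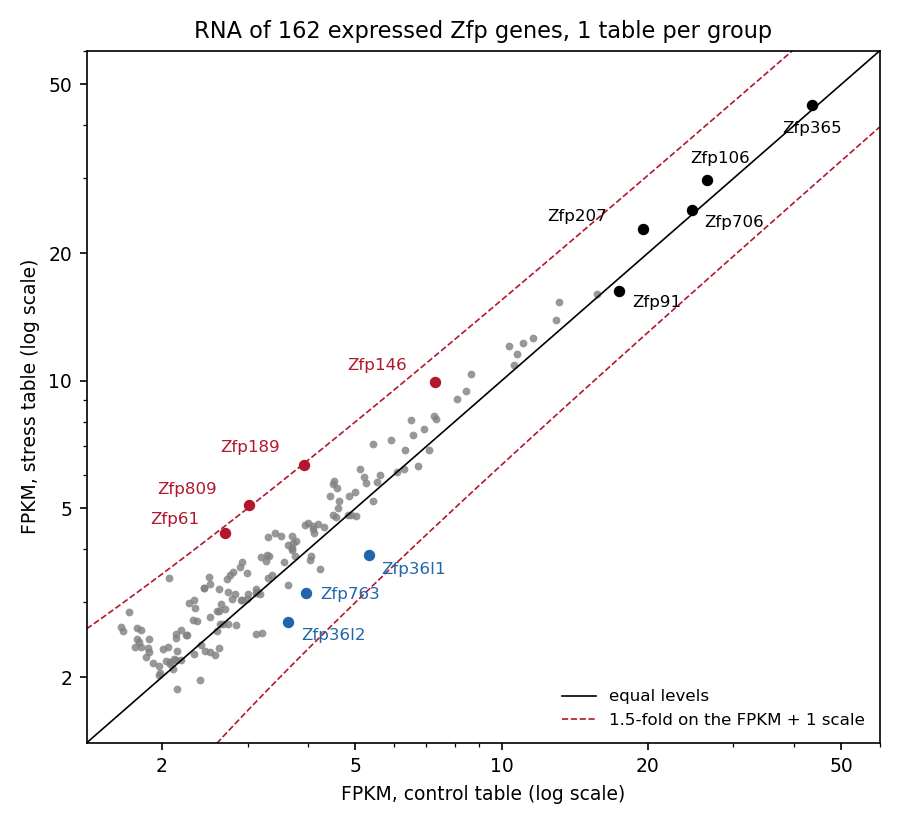
FPKM of each of the 162 Zfp genes in the control table (x axis, log scale) and the stress table (y axis, log scale), 1 point per gene and 1 table per group; the solid line marks equal levels and dashed lines a 1.5-fold difference on the FPKM + 1 scale. Most points lie just above the line of equal levels, Zfp809 (3.02 and 5.10 FPKM) lies just past the upper dashed line, and Zfp36l1 and Zfp36l2 lie farthest below the solid line.

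Among the higher genes, Zfp809 encodes a KRAB protein that recruits TRIM28 to the primer binding site of murine leukemia viruses and related endogenous retroviruses. It stood at 3.02 FPKM in controls and 5.10 after stress (log2 difference 0.60). Most of its increase lay in the transcript NM_001164624, at 1.73 and 3.69 FPKM, while NM_172763 stood at 1.29 and 1.11. Zfp189, a gene studied for stress resilience in the prefrontal cortex, had 3.92 and 6.33 FPKM (0.58), nearly all of it in 1 transcript. Zfp61 followed at 2.69 and 4.38 FPKM (0.54), Zfp948 at 2.06 and 3.42 (0.53), and Zfp758 at 1.71 and 2.85 (0.51). The other 5 of the 10 highest were Zfp101, Zfp420, Zfp146, Zfp334 and Zfp410, with differences of 0.46, 0.42, 0.40, 0.38 and 0.35. Zfp146 was the most abundant of them at 7.29 and 9.92 FPKM. Zfp410, an activator of the chromatin remodeller gene Chd4, stood at 1.81 and 2.58 FPKM, and Chd4 itself at 21.3 and 25.7 (0.26). With a pseudocount of 0.1 in place of 1, 7 of the 162 were at least 1.5-fold higher, and after centring on the median of all genes 0 were. Shares over all genes were not computed at these settings, and the 1.08% given above holds for a pseudocount of 1 without centring.

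The 2 lowest differences belonged to Zfp36l1 and Zfp36l2, relatives of Zfp36 with CCCH fingers, whose proteins bind AU-rich elements in messenger RNA and recruit the CCR4-NOT deadenylase. Zfp36l1 stood at 5.33 FPKM in controls and 3.87 after stress (log2 difference -0.38), and Zfp36l2 at 3.64 and 2.70 (-0.33). They were the only 2 of the 162 that were at least 1.2-fold lower. Zfp36 itself was below the limit of expression. Next came Zfp763 at 3.96 and 3.16 FPKM (-0.25), Zfp280c at 3.22 and 2.54 (-0.25), Zfp160 at 3.12 and 2.52 (-0.23), Zfp367 at 2.40 and 1.97 (-0.20) and Zfp277 at 4.23 and 3.61 (-0.18). Zfp687, Zfp386 and Zfp697 completed the 10 lowest with -0.13, -0.13 and -0.11. In Zfp280c the direction depended on the isoform, since NM_001166648 stood at 1.55 FPKM in the control table and at 0.000764 in the stress table, while NM_001166650 stood at 0.29 and 1.90.

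Isoforms also moved against each other within abundant genes. In Zfp207, NM_001130170 stood at 12.3 FPKM in controls and 6.68 after stress, while NM_001130169 stood at 2.47 and 8.63. In Zfp281, a regulator of pluripotency, NM_001160251 had 4.83 and 1.98 FPKM and NM_177643 had 3.64 and 7.49, although the gene as a whole had 8.47 and 9.47. These isoforms share most of their sequence, and how the authors' fit divided reads among them in 1 table per group has no replicate check.

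Of 34 genes for the KRAB corepressor complex and heterochromatin, 32 had at least 2 FPKM, and 0 were at least 1.5-fold higher or lower, against 1.08% and 0.721% of all genes. Their median difference was 0.10, where that of all genes was 0.09, with values from -0.20 to 0.40. Trim28 itself stood at 9.41 FPKM in controls and 9.33 after stress (-0.01), and Setdb1 at 4.10 and 4.85 (0.20). The highest in the list were Uhrf2 at 6.59 and 8.99 FPKM (0.40) and Mta3 at 10.3 and 13.0 (0.31), and the lowest Suv39h1, a histone methyltransferase, at 2.52 and 2.07 (-0.20) and Atf7ip, the partner of SETDB1, at 9.12 and 8.42 (-0.10). Of 30 genes for decay of AU-rich messenger RNA, 28 had at least 2 FPKM and 0 passed 1.5-fold, with a median of 0.11. The deadenylase scaffold Cnot1 stood at 10.8 and 12.9 FPKM (0.23). The highest were Tnrc6a (0.30) and Pan3 (0.25), and the lowest Xrn2 (-0.10) and Cnot6l (-0.08).

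On DNA, the Zfp genes had shorter bodies and longer last exons than expressed genes at large. Their median body was 16.9 kb against 25.2 kb, their median number of exons 5 against 9, and their median last exon 2648 bases against 1356. In genes of this type, the last exon usually encodes the whole array of fingers. It made up 70.6% of their exon bases, against 49.5% for all genes. The 162 genes lay on 20 chromosomes. Chromosome 7 held 29 (17.9%, against 6.86% of all genes) and chromosome 17 held 18 (11.1%, against 4.60%). Chromosome 8 held 13 (8.02%, against 5.35%) and chromosome 5 held 12 (7.41%, against 6.28%). A further Zfp gene lay within 100 kb of 81 of them.

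A larger share of Zfp exon bases lay under 5hmC peaks than of exon bases in general, in each of the 6 libraries. Stress libraries 1 to 3 had 4.52%, 8.74% and 10.0% of the Zfp exon bases under peaks, and control libraries 1 to 3 had 3.82%, 6.76% and 4.04%. Over all genes the same libraries had 3.05%, 5.71% and 6.71%, and 2.27%, 4.41% and 2.22%. The ratio of Zfp genes to all genes was 1.50 ± 0.03 (SD, n = 3) in the stress and 1.68 ± 0.14 (SD, n = 3) in the control libraries. Between the groups, Zfp exon coverage was 7.76% ± 2.87 (SD, n = 3) with stress and 4.87% ± 1.64 (SD, n = 3) without, and the ranges overlapped, since stress library 1 was below control library 2. With every gene given equal weight, a choice made after the data were seen, the values were 8.21% ± 3.21 and 5.93% ± 1.84 (SD, n = 3), against 5.17% ± 1.88 and 2.91% ± 1.25 for all genes. The excess varied with gene structure. Where the last exon was 2 kb or longer, mean exon coverage was 5.89% and 4.06% for 111 Zfp genes, against 5.07% and 3.06% for 3106 genes. Where it was shorter, the values were 13.9% and 7.55% for 51 Zfp genes, against 5.26% and 2.87% for 6052 genes.

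**Figure D2:**
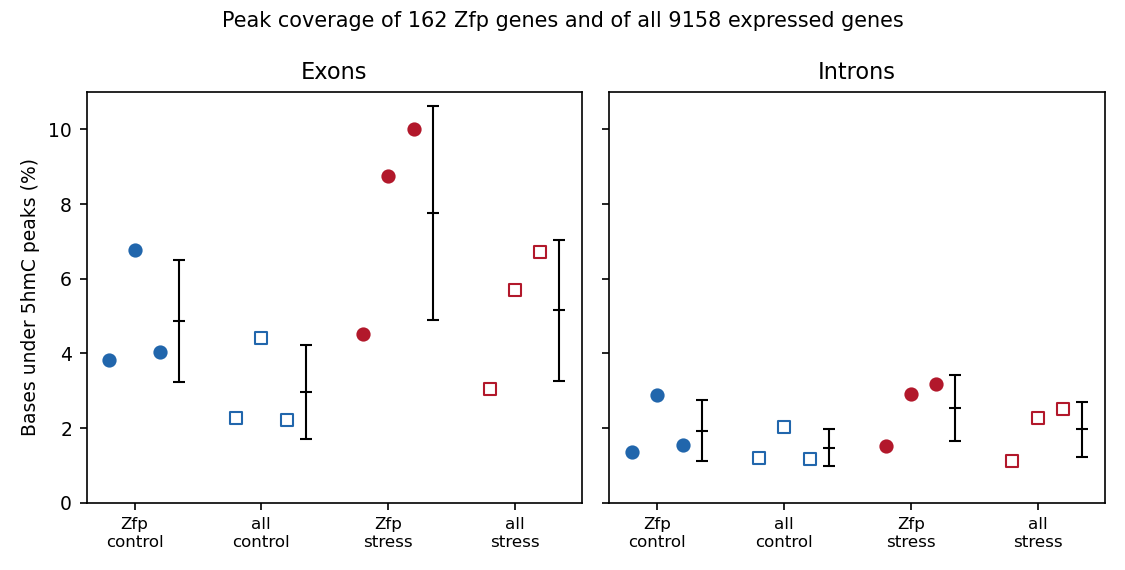
Percent of exon bases (left) and intron bases (right) under 5hmC peaks in each library, for the 162 Zfp genes (filled circles) and all 9158 expressed genes (open squares), with bars for the mean ± SD of 3 libraries. Zfp exons lie above all exons in every library, and the stress and control libraries overlap in both panels.

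Taken over all 162 genes, the excess was one of covered length, while the share of genes with an exon peak was near the background. This depended on body length. An exon peak, meaning a peak that shares at least 1 bp with an exon, was present on 33, 60 and 59 of the 162 genes in stress libraries 1 to 3 and on 30, 52 and 34 in control libraries 1 to 3. These are 31.3% ± 9.45 and 23.9% ± 7.23 (SD, n = 3) of the Zfp genes, against 30.4% ± 8.85 and 22.0% ± 6.61 of all genes. Among bodies under 20 kb, the mean shares were 27.6% and 21.9% for 99 Zfp genes and 22.2% and 13.7% for 3958 genes of all kinds. Among longer bodies, they were 37.0% and 27.0% for 63 Zfp genes and 36.7% and 28.4% for 5200 genes of all kinds. Peaks in introns with no exon base were on 21.0% ± 3.70 and 20.2% ± 3.40 of the Zfp genes, below 30.9% ± 5.19 and 29.6% ± 4.22 of all genes. Pooled over all 162 genes, the share of intron bases covered was nevertheless higher, at 2.54% ± 0.89 and 1.93% ± 0.82. Over all genes it was 1.97% ± 0.74 and 1.47% ± 0.49. This too depended on body length. Among bodies under 20 kb, Zfp introns had 2.31% and 1.88%, below 3.58% and 2.16% for genes of all kinds. Among longer bodies they had 2.59% and 1.94%, above 1.89% and 1.44%. With every gene given equal weight, Zfp introns had 2.48% and 1.91%, below 3.13% and 1.98% for all genes. Exon coverage was 3.04 ± 0.10 times intron coverage in the stress and 2.58 ± 0.22 times in the control libraries, and 0 of the 3 control libraries reached the lowest stress library. The same held over all genes, at 2.63 ± 0.09 and 1.98 ± 0.15 times.

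The last exon carried a peak in 15.8% ± 4.99 of the Zfp genes with stress and 12.8% ± 2.34 without (SD, n = 3), against 10.1% and 6.59% of all last exons in the mean. Among last exons of at least 2 kb, a limit chosen after the data were seen, the shares were 15.0% and 11.1% for 111 Zfp genes and 15.1% and 10.5% for 3106 genes of all kinds. Among shorter last exons, 51 Zfp genes had 17.6% ± 7.07 and 16.3% ± 1.13, and 6052 genes of all kinds had 7.53% ± 2.87 and 4.60% ± 1.97 (SD, n = 3). The shares for Zfp genes and for all genes were thus near each other among the longer last exons and apart among the shorter ones. In the longer last exons, split into 5 equal bins, the group means were highest in bin 2, at 7.12% with stress and 6.40% without, and lowest in bin 5 at the end, at 2.55% and 1.00%. The place of the maximum differed between libraries, since stress libraries 1 and 3 were highest in bin 1, at 4.31% and 8.09%, and the other 4 libraries in bin 2. Over all genes the group means were highest in bin 1, at 8.35% and 4.36%. A first exon held a peak on 1 of the 162 genes in stress library 1 and on 0 in the other 5 libraries, against 0.491% to 1.28% of all genes in the 6 libraries.

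**Figure D3:**
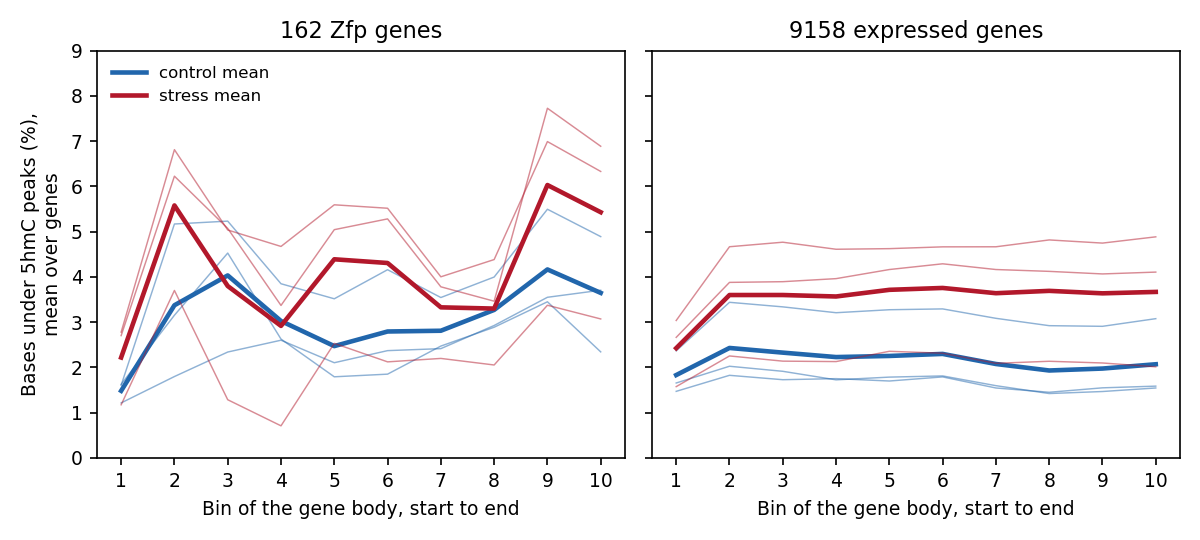
Percent of bases under 5hmC peaks in 10 equal bins of the gene body, from start to end, as the mean over genes, for the 162 Zfp genes (left) and all 9158 expressed genes (right); thin lines are single libraries and thick lines group means. In the group means, Zfp coverage is lowest in bin 1 (2.22% with stress, 1.48% without) and reaches 6.03% with stress in bin 9, and the libraries of the groups overlap.

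The 81 genes within 100 kb of another Zfp gene had 1.42% ± 0.61 of their intron bases under peaks with stress and 1.17% ± 0.36 without, and the 81 genes farther away had 2.83% ± 0.96 and 2.12% ± 0.95 (SD, n = 3). Exon coverage was 7.40% ± 2.26 and 5.81% ± 1.39 near another Zfp gene and 8.04% ± 3.45 and 4.14% ± 2.03 farther away. The distance was chosen after the data were seen. Across the 162 genes, Spearman's rho was 0.116 between mean FPKM and exon coverage, and -0.092 between the RNA difference and the difference in exon coverage, which are descriptions over genes that share libraries.

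Peaks of the 6 libraries merged into 353 regions on 110 of the genes, of which 57 touched the last exon, 71 another exon and 225 introns alone. No peak lay on 52 genes (32.1%), against 26.2% of all genes, and these included Zfp36l1, Zfp36l2 and Zfp91. Of the 353 regions, 178 were found in 1 library and 12 in all 6, and of the 74450 regions of the whole genome, 42395 were found in 1 library and 1211 in all 6. Those 12 lay on 12 genes (7.41%), against a background of 6.14%. They covered the last exon in Zfp358, Zfp768, Zfp777, Zfp871 and Zfp956, another exon in Zfp12, Zfp507, Zfp697 and Zfp866, and introns in Zfp3, Zfp277 and Zfp407.

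Exon coverage varied widely between the genes. Zfp146, whose body is 8.46 kb long, had 0%, 96.6% and 96.6% of its exon bases under peaks in stress libraries 1 to 3 and 64.2%, 80.7% and 96.6% in control libraries 1 to 3. Zfp637 had 0%, 84.8% and 76.4% with stress and 77.2%, 70.2% and 76.7% without. Both were covered in 5 libraries and bare in stress library 1, which had the shortest list of peaks. Zfp358 was covered in all 6, at 71.7%, 64.2% and 71.7% with stress and 53.1%, 64.8% and 54.7% without. Zfp768 ranged from 43.2% to 69.3% with stress and from 39.5% to 62.3% without, so that its groups overlapped. Zfp777, Zfp423, Zfp672, Zfp13, Zfp956 and Zfp239 completed the 10 highest, with means over the 6 libraries from 33.2% to 44.4%. In introns, Zfp866 led with a mean of 17.3%, followed by Zfp3, Zfp191, Zfp12, Zfp740, Zfp334, Zfp869, Zfp386, Zfp651 and Zfp280b, down to 8.92%. In Zfp334 this rested on stress library 2 alone, with 63.8% against 0% in the other 5.

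**Figure D4:**
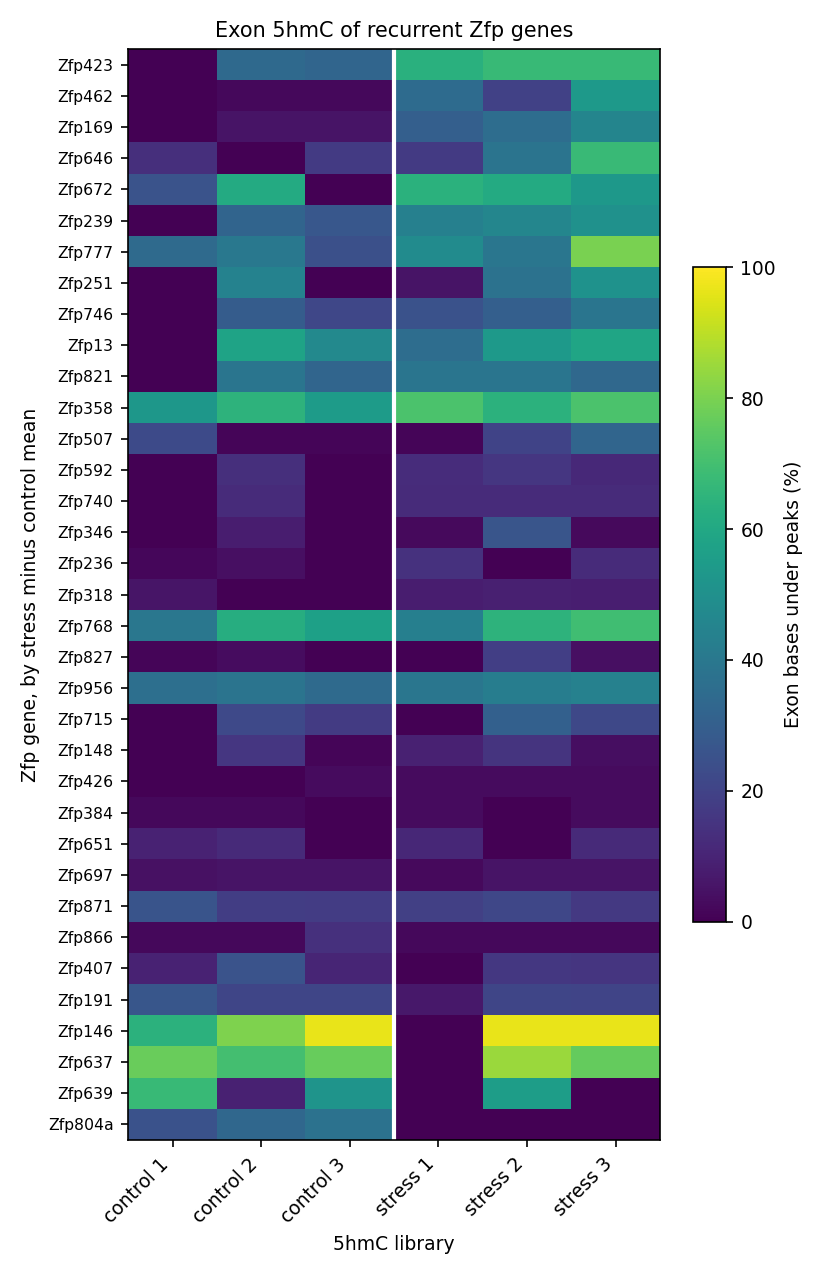
Percent of exon bases under 5hmC peaks (colour, 0 to 100%) in the 3 control and 3 stress libraries, for the 35 Zfp genes with an exon peak in at least 4 libraries or with groups that did not overlap, ordered by the stress minus the control mean. Zfp423, Zfp462 and Zfp169 stand at the top, Zfp804a at the bottom, and Zfp146 and Zfp637 are dark in stress library 1 alone.

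In 6 of the 89 Zfp genes with any exon peak (6.74%), all 3 stress libraries had more exon coverage than all 3 control libraries, against 6.29% of all genes tested. The number is at the background level. With 3 against 3 libraries, the exact two-sided permutation test over 20 assignments cannot give a p below 0.1, and after Benjamini-Hochberg adjustment over all 5298 genes tested p was 1 for each. Over those genes 0 were at or under an unadjusted p of 0.05, which the design does not allow. Zfp423, a factor needed for cerebellar and midline brain development, had 63.4%, 67.2% and 67.2% with stress and 0%, 34.3% and 32.6% without. Zfp462, a heterochromatin-associated gene whose loss impairs neurodevelopment, had 35.0%, 19.4% and 54.0% with stress and 0%, 2.13% and 2.13% without. In both, every stress library stood well above the control libraries. Their RNA hardly differed, with 2.73 and 2.67 FPKM for Zfp423 and 4.19 and 4.60 for Zfp462 in the control and stress tables.

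Zfp169 had 30.2%, 35.6% and 45.4% of its exon bases under peaks with stress and 0%, 5.33% and 5.33% without. Zfp239 had 43.4%, 45.8% and 50.6% with stress and 0%, 32.1% and 27.2% without. Zfp318 had 7.93%, 8.76% and 8.54% with stress and 5.78%, 0% and 0% without. In Zfp956 the groups were apart by little, at 41.8% ± 2.45 with stress and 36.6% ± 1.91 without (SD, n = 3). In the opposite direction, 1 of the 89 genes was lower in all stress libraries (background 0.642%). This was Zfp804a, whose human counterpart lies at a locus associated with schizophrenia. It had 0% in each of the 3 stress libraries and 25.1%, 33.5% and 37.7% in the control libraries. Its RNA stood at 4.52 FPKM in controls and 5.79 after stress (0.30).

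In 6 of 99 Zfp genes with any intron coverage (6.06%) the stress libraries were all higher, against a background of 7.49%, and in 1 all were lower, against 1.44%. The 6 were Zfp3, Zfp326, Zfp386, Zfp608, Zfp646 and Zfp740, with adjusted p of 1 in the same exact permutation test. Zfp646 had 11.2%, 14.3% and 12.2% with stress and 0% in each control library. Zfp326, which links splicing to transcript elongation, had 2.76%, 8.97% and 7.79% with stress and 2.58%, 2.40% and 2.44% without, so that stress library 1 was hardly above the controls. Zfp622 was the lower gene, with 0% in each stress library and 7.71%, 5.60% and 1.64% in the controls.

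Regions found in all 3 stress libraries and in 0 control libraries lay on 7 of the 162 genes (4.32%), against a background of 4.13%. Regions found in all 3 control libraries and in 0 stress libraries lay on 2 (1.23%), against 1.28%. Positions are in mm9. On exons, the stress-only regions were chr13:48584864-48586892 in the last exon of Zfp169 and chr4:55021417-55026790 in Zfp462, the latter 5374 bp long, which made 2 genes (1.23%) against a background of 2.3%, while an exon held a control-only region in 1 gene (0.617%) against 0.328%. In introns they were chr2:77389295-77390899 in Zfp385b, chr12:117287648-117288989 in Zfp386, chr18:84655599-84657077 in Zfp407, chr18:65815608-65817530 in Zfp532 and chr7:38333002-38334864 in Zfp536, a repressor of neuronal differentiation. The control-only regions were chr2:82097320-82099175 in the last exon of Zfp804a and chr4:34798778-34799879 in an intron of Zfp292, a regulator of growth hormone expression.

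The strength of these peaks varied. Each peak has a score given by the authors, used here only as its percentile within its own list. The Zfp804a peaks stood at percentiles 77.0, 93.2 and 99.2 of control lists 1 to 3, and the Zfp385b peaks at 69.2, 79.9 and 96.8 of stress lists 1 to 3. The Zfp532 peaks were weak, at 19.8, 28.7 and 32.5, and the Zfp536 peaks were at 40.9, 78.6 and 12.2. In the higher-scoring 50% of each list, 2 of the 7 stress-only genes kept such a region, Zfp385b and Zfp386, and Zfp804a kept its control-only region. Without stress library 1 the number of genes with a stress-only region was 17, without stress library 2 it was 11, and without control library 2 it was 12, and all 7 were among them each time. The number with a control-only region was 9 without control library 3 and 4 without control library 1, control library 2 or stress library 3, and both genes were among them. Leaving out a library loosens the rule for a group-only region. Such a region is then lost only where the omitted library had joined the other peaks. That these genes stayed was thus nearly fixed beforehand and is no check on them. Shares over all genes were not computed for these settings.

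RNA differences of the 9 Zfp genes with such group-only regions were 0.30 for Zfp804a, 0.11 for Zfp169 and Zfp462, -0.07 for Zfp385b, -0.13 for Zfp386, 0.16 for Zfp407, 0.15 for Zfp532, 0.04 for Zfp536 and 0.05 for Zfp292. Among the genes with the highest and lowest RNA differences, Zfp809 had intron coverage in control library 2 alone and no exon coverage, and Zfp36l1 and Zfp36l2 had none. Zfp189 had 2.79% of its exon bases under peaks in stress libraries 2 and 3 and in control library 2, and 0% in the others. Zfp146, also among the 10 highest, had the exon coverage given above, and Zfp334 had 0%, 1.25% and 0% with stress and 49.1%, 41.4% and 0% without. Among the partner genes, stress-only regions lay on 2 of 32 expressed corepressor genes, Gatad2a, a NuRD subunit, and Pphln1, a HUSH subunit. A control-only region lay on 1 of the 32, Fam208a, also a HUSH subunit. Of 28 expressed decay genes, 0 had a stress-only region and 1 a control-only region, Tia1, which binds AU-rich RNA. Over all genes the shares were 4.13% and 1.28%, and these small counts were not tested.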

How the data were processed

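5hmC was captured from 10 μg of pooled hippocampal DNA sonicated to 300 bp, and 100 ng of total RNA went into each RNA library, per the labels' protocols. The authors deposited a list of peaks with a score for each 5hmC library, and the lowest score was 50. The submitters' processing notes name mm9 and Bowtie 0.12.9 for the reads, and edgeR. Peak names have the form MACS writes, and its settings and any input library are not given in the sources used here. As for RNA, the authors deposited it as 1 Cufflinks table for each group, with FPKM per transcript and other attributes. TopHat 1.0.12, Cufflinks 2.1.1 and Cuffdiff 2.1.1 are named in the submitters' processing notes. Coverage per FPKM follows depth and was 8.14 in controls and 9.22 after stress. The FPKM lay outside the deposited interval for 9 of the 162 genes and for 2649 of all 9158 genes, so intervals were not used. Among the 9 were the most abundant genes Zfp365, Zfp106 and Zfp706, and also Zfp644, Zfp664 and Zfp146.

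Gene models came from the RNA tables. Exons of all transcripts of a gene were joined. A gene at several places (2 of the 162) was kept where its FPKM was highest. Peaks that shared 1 bp or more were joined into regions. Coverage was tested for every gene with an exact two-sided permutation test (3 against 3 libraries) with Benjamini-Hochberg adjustment. P-values measure only the spread between pools. The steps recovered planted differences between groups that could not overlap, and regions planted away from every peak. This checks the code, and not how well smaller differences in sparse coverage would be found. The named genes were those highest in level, highest and lowest in RNA difference, with group-only regions or highest coverage, plus genes of fixed roles and those next to the limit, and the text names a part of them. The genes, lists and tests were chosen with earlier results of these data known. Replicate numbers are in the labels for both groups. Alternatives were other pseudocounts, limits, peak lists, overlaps and gene models, and each library left out.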

Additional observations from a re-analysis of the deposited data

How the results depend on the processing

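RNA differences have no replicate check, and no 5hmC test could pass 0.05. Reads shared among paralogs, the unknown depth per gene and list lengths that differ between libraries limit every value. A reversal could be called only for an RNA difference of at least 1.5-fold, and none was found under the alternatives run. Of the Zfp genes only Zfp809 had such a difference, so this absence says little about the other values. Counts, shares and means could not be called reversed, and many of them moved, as given below. No share over all genes was computed under these alternatives, so the counts below have no background. Below 1.5-fold signs could turn, as with the most abundant isoform of Zfp280c (1.17) and Zfp207 (-0.79). At 1.5-fold, the number of higher Zfp genes was 7 with a pseudocount of 0.1, 2 without a filter, 0 from 5 FPKM, 0 after centring and 2 with the most abundant isoform alone, where 1 was lower, counted over genes whose most abundant isoform had a mean of at least 2 FPKM, which that of Zfp280c did not. With lists cut to an equal number of top-scoring peaks, intron-only peaks were on 25.3 genes in the mean of the stress and 25.3 of the control libraries, 2 genes were lower in exons, 2 lower in introns, and 4 had a stress-only region. In the higher-scoring 50% of each list, exon peaks were on 35.3 and 22.3 genes and intron-only peaks on 21.7 and 19.7, control exon coverage was 3.02%, intron coverage 1.38% and 0.88%, 0 genes were lower in introns and 1 had a control-only region. From 5 FPKM, 0 genes were higher in exons, 3 higher in introns and 1 had a stress-only region. With a library left out, groups separate more easily, so the counts of higher and lower genes could only stay or rise. Leaving out each library in turn gave 6 to 18 genes higher and 1 to 3 lower in exons, 6 to 20 higher and 2 to 5 lower in introns, 8 to 17 with a stress-only and 2 to 9 with a control-only region. Exon peaks were then on 46 to 59.5 (stress) and 32 to 43 (control) genes, intron-only peaks on 31 to 37 and 30 to 35.5, exon coverage was 6.63% to 9.38% and 3.93% to 5.40%, and intron coverage 2.22% to 3.05% and 1.46% to 2.21%. Stress library 1 and control library 2 moved the counts of higher genes most. With replicate numbers as a block, where all 3 numbered pairs had to differ in the same direction, 12 genes were higher in exons, 11 higher in introns and 5 lower in introns. Every gene whose groups did not overlap meets this rule too, so these counts could only stay or rise. Same-numbered libraries correlated at 0.133, -0.003 and -0.042 in their deviations from the group means, and other pairs at -0.166 to 0.158. Deviations sum to 0 within a group, so these values cannot tell whether the numbers mark a pairing. The cause of these changes was not tested, apart from fewer peaks, genes or libraries entering by construction.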
